A study of Mus musculus with 72 samples.

Results

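Transcripts of 10 genes of the piRNA pathway were followed through the RNA-Seq tables of a mouse study of in vitro fertilization (IVF): Piwil1, Piwil2, Piwil4, Ddx4, Mael, Mov10l1, Tdrd1, Tdrd9, Asz1 and Pld6. The genes were taken by symbol. They are 10 of the 37108 symbols listed in any of the 7 count tables, and all 10 stood in every table. PIWI-interacting RNAs (piRNAs) are small RNAs of germ cells that guide PIWI proteins to transposon transcripts and to other RNAs. Fetal male germ cells use them to silence transposons, partly through DNA methylation, and spermatocytes make a further, abundant class of piRNAs at the pachytene stage of meiosis. The precursors are processed at the mitochondrial surface and in nuage, the cytoplasmic granules of germ cells.

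The 72 libraries came from 7 tissues and ages. F1 naturals were offspring of CF-1 females mated in a natural estrous cycle with SJL/B6 males heterozygous for GFP. F1 IVF males came from eggs of superovulated CF-1 females fertilized with sperm of such SJL/B6 males, cultured to blastocysts and transferred to pseudopregnant females. F1 testes were taken at E18.5 (4 naturals and 6 IVF), 12 weeks (5 and 5) and 39 weeks (4 and 6). F2 animals were sired by F1 natural or F1 IVF males with wild-type CF-1 females and were themselves conceived by mating, so that IVF in the F2 names the conception of the sire. F2 tissues were taken at 12 weeks: testis (5 naturals and 7 IVF), ovary (4 and 5), male liver (5 and 5) and female liver (5 and 6). Total counts ran from 543745 to 90441392 per library, and at E18.5 from 2904727 to 4869139 in naturals against 8500054 to 15745480 in IVF testes. Levels are given as counts scaled to one fixed total per library (CPM). Differences are log2 fold changes from edgeR after TMM scaling, which sets libraries to a common level by their typical gene, and a called gene passed both an adjusted p of 0.05 (Benjamini-Hochberg) and a difference of 1.5-fold. In whole tissue, fewer germ cells and less RNA per germ cell cannot be told apart.

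The testes carried the markers of their ages. The sum of 12 spermatid markers was 13.6 to 21.3 CPM in E18.5 naturals and 18769.6 to 20473 CPM in 12-week naturals, that of 12 spermatocyte markers 82.8 to 116 and 1192 to 1252 CPM, and that of 10 Sertoli cell markers 4000.1 to 5421 and 786 to 934 CPM. Some libraries stood apart. The pairs of naturals 1 and 2 at 39 weeks, naturals 1 and 2 of F2 testis and IVF 3 and 4 of F2 testis differed less than the other pairs of their groups, with a chi-square per gene of 3.06, 3.69 and 2.84. Counting error alone gives about 1, or more where both mates of a pair are counted. The sum of 6 hepatocyte markers was 424 CPM in E18.5 natural 1, against 0.457 to 16.2 CPM in E18.5 IVF testes. It was 23.1 CPM in F2 testis naturals 1 and 2 alike, against 0.946 to 1.90 CPM in the other F2 testes, and 19.6 CPM in 12-week IVF 3, against 1.24 to 4.58 CPM in the other 12-week testes. Male liver naturals 1, 4 and 5 held germ line transcripts and are described with the livers.

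The promoters of these genes, taken as 250 bases before to 50 bases after a RefSeq start (GRCm38.p6), were searched on both strands for the palindrome CACGTG, an E-box that several basic helix-loop-helix factors bind, and for a MYB-type motif in any of 4 forms, which are CAACTG or else CAACGG or else TAACTG or else TAACGG. A-MYB, encoded by Mybl1, is known as an activator of pachytene piRNA precursors and of several genes of the pathway. RefSeq windows were matched for 9 of the 10 genes, 13 windows in all. Piwil2 was not matched. CACGTG stood in a window of 7 of the 9 genes (77.8%), of 5 of 19 other pathway genes (26.3%) and of 2187 of 27025 genes in all (8.09%). The matched genes without it were Asz1, which was higher in the adult than in the fetal testis, and Piwil4. A MYB-type match stood in windows of 3 of the 9 genes (33.3%), Piwil1, Mov10l1 and Pld6, and of 31.1% of all genes. The windows of Piwil1, Mael and Ddx4, which were high in the adult testis, and of Piwil4, which was higher in the fetal than in the adult testis, are shown with matches in capitals, each written from 5′ to 3′ on the strand of the gene.
Piwil1 (chr5:128735996-128736295, plus strand): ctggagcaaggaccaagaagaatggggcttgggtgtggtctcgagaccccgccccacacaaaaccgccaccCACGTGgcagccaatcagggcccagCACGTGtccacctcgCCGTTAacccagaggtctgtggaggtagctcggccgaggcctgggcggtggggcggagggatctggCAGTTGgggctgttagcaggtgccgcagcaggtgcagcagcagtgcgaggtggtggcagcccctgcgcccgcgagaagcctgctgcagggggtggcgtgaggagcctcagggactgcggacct
Mael (chr1:166238695-166238994, minus strand): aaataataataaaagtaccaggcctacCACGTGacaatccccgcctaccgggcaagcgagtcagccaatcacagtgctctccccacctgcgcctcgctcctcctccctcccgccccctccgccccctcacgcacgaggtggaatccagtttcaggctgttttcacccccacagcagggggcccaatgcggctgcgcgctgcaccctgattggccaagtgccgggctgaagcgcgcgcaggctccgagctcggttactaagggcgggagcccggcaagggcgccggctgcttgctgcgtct
Ddx4 (chr13:112652261-112652560, minus strand): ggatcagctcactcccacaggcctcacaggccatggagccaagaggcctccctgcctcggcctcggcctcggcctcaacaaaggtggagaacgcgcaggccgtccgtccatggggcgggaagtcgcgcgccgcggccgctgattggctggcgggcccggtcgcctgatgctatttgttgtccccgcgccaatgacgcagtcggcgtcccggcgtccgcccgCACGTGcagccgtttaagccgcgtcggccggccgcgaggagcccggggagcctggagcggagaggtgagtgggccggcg
Piwil4 (first of 2 windows, chr9:14740623-14740922, minus strand): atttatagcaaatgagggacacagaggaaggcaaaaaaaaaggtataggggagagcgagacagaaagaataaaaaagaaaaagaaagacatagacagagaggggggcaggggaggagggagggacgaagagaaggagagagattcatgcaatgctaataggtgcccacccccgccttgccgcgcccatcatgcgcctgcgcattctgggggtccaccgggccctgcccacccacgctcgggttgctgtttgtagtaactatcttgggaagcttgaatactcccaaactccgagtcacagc
The Piwil1 window held 2 copies of CACGTG and 2 MYB-type matches, those of Mael and Ddx4 1 copy of CACGTG each, and the Piwil4 window neither. Such matches describe letters only, and no binding was measured.

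The PIWI genes changed places between the fetal and the adult testis. Piwil1 (chr5:128736071-128755474, mm10) encodes MIWI, the PIWI protein of spermatocytes and round spermatids. It was at 8.74, 8.21, 10.3 and 14.1 CPM in the 4 E18.5 naturals and at 537, 518, 546, 527 and 560.0 CPM in the 5 naturals at 12 weeks. The ages were far apart in every library, with a log2 difference of 6.57 ± 0.14 (SE; edgeR quasi-likelihood test, Benjamini-Hochberg adjusted p = 8.25e-29). Piwil4 (chr9:14701776-14740672) encodes MIWI2, the nuclear PIWI protein of fetal prospermatogonia. It went the opposite way, from 15.6, 16.0, 32.8 and 33.4 CPM to 0.590, 0.452, 0.391, 0.274 and 0.560 CPM, a log2 difference of -4.87 ± 0.47 (edgeR, adjusted p = 3.51e-11). Among the E18.5 naturals, 1 and 2 were low and 3 and 4 high for Piwil4, and no 12-week library came near either pair.

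Piwil2 (chr14:70372477-70436898) encodes MILI, which is used by fetal and postnatal male germ cells alike. It was at 213, 153, 169 and 196 CPM in E18.5 naturals and at 246, 226, 259.8, 227 and 196 CPM at 12 weeks, and these groups overlapped. TMM scaling gave a log2 difference of 1.17 ± 0.16 (edgeR, adjusted p = 5.17e-08), and scaling by library totals alone gave 0.39 (edgeR, adjusted p = 0.0263), under the limit of 1.5-fold. The shares of the 3 PIWI genes in their sum per kilobase of exon need no scaling between libraries. In E18.5 naturals Piwil2 made up 83.4% ± 4.84 of that sum (SD, n = 4), Piwil4 10.9% ± 3.99 and Piwil1 5.71% ± 1.04. At 12 weeks Piwil1 made up 73.8% ± 2.22 (SD, n = 5), Piwil2 26.1% ± 2.23 and Piwil4 0.0504% ± 0.0142. The Piwil1 shares of the 2 ages did not overlap (exact permutation test over libraries, two-sided p = 0.0159, the smallest that 4 against 5 libraries allow, and 0.102 after Benjamini-Hochberg adjustment over 8 comparisons of this share, which were chosen after the values were seen). The Piwil1 share was 77.3% ± 7.16 in naturals at 39 weeks (SD, n = 4) and 75.8% ± 1.20 in F2 natural testis (SD, n = 5).

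**Figure D1:**
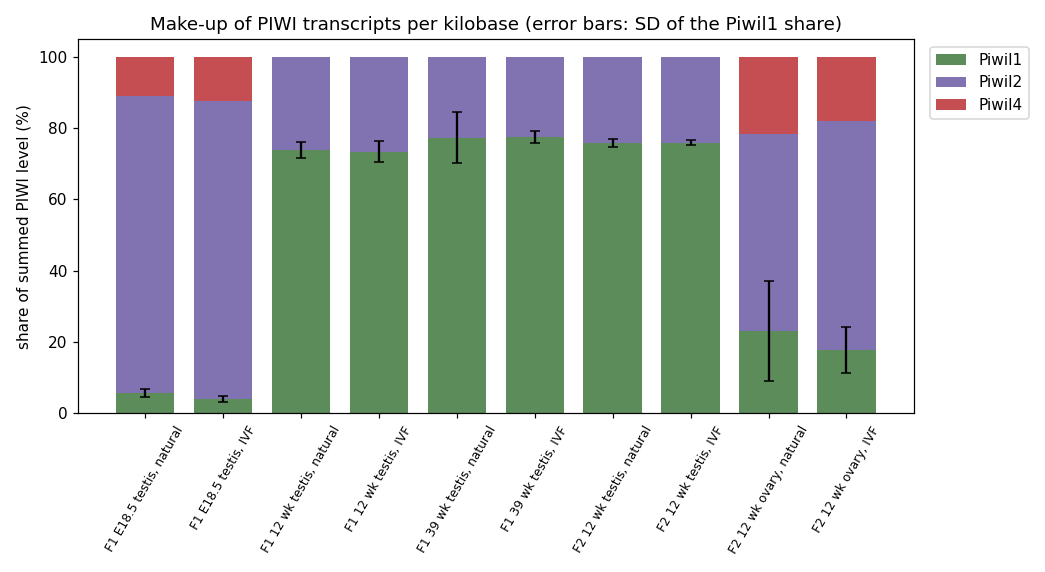
Mean share of Piwil1, Piwil2 and Piwil4 in their summed CPM per kilobase (percent, vertical axis) in each testis and ovary group, with the SD of the Piwil1 share as error bars. Piwil1 makes up 5.71% in E18.5 naturals and 73.8% in naturals at 12 weeks, and Piwil4, 10.9% at E18.5, is too small to be seen in the adult testis.

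All 10 genes were called between E18.5 and 12-week naturals, 9 higher at 12 weeks and Piwil4 lower. Of all genes in the same fit, 75.9% were called in either direction and 41% were higher and 34.9% lower at 12 weeks. Libraries of the 2 ages did not overlap for 8 of the 9 higher genes and for Piwil4, against 31.1% of all genes higher and 45.8% lower without overlap. The fetal and adult tables were made separately, with 25239 and 35976 symbols, so age and table cannot be told apart. The median log2 difference of all 18282 genes tested was 0.14 with TMM scaling and -0.64 with library totals alone. With library totals 8 of the 10 genes were called, 7 of them higher at 12 weeks, and Piwil2 and Tdrd9 (0.47) stayed under 1.5-fold. Over all genes the same change of scaling moved the calls from 7491 higher and 6383 lower to 5635 higher and 8849 lower.

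Pld6 changed most among the genes that act at the mitochondrial surface. Pld6 (chr11:59783893-59787657) encodes the endonuclease also known as Zucchini, which cuts piRNA precursors. It was at 5.06, 2.46, 6.42 and 3.44 CPM in E18.5 naturals and at 68.3, 69.7, 78.0, 74.6 and 81.9 CPM at 12 weeks, a log2 difference of 4.91 ± 0.19 (edgeR, adjusted p = 4.29e-22). Asz1 (chr6:18050964-18109061), also known as GASZ, is a germ cell protein of the mitochondrial outer membrane. It went from 6.21, 6.98, 7.57 and 8.95 CPM to 18.8, 16.2, 16.7, 19.3 and 19.1 CPM, a log2 difference of 2.13 ± 0.21 (edgeR, adjusted p = 4.80e-11). Mov10l1 (chr15:88982891-89055152), an RNA helicase that binds piRNA precursors, went from 38.9, 46.2, 45.2 and 46.5 CPM to 85.7, 84.7, 88.8, 82.2 and 75.8 CPM, a log2 difference of 1.75 ± 0.17 (edgeR, adjusted p = 1.79e-11). In none of the 3 genes did a 12-week library reach down to a fetal one.

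Mael, Ddx4, Tdrd1 and Tdrd9 were also higher at 12 weeks. Mael (chr1:166201385-166238744), or Maelstrom, a protein needed for transposon silencing, was at 105, 96.7, 112 and 152 CPM in E18.5 naturals and at 1015, 953, 926, 995 and 1028 CPM at 12 weeks, a log2 difference of 3.92 ± 0.12 (edgeR, adjusted p = 1.14e-24). Ddx4 (chr13:112598333-112652633), the mouse vasa homolog and an RNA helicase of germ cells, was at 64.2, 61.4, 57.1 and 84.7 CPM and at 342, 368, 362, 388 and 363 CPM, a log2 difference of 3.29 ± 0.12 (edgeR, adjusted p = 7.10e-23). The lowest 12-week library was above the highest fetal one by a wide margin for both. Tdrd1 (chr19:56826171-56870012), a tudor domain protein that binds PIWI proteins, was at 55.0, 50.7, 54.6 and 62.3 CPM and at 204, 208, 216, 203 and 199 CPM, a log2 difference of 2.73 ± 0.15 (edgeR, adjusted p = 4.46e-18). Tdrd9 (chr12:111971488-112068854), a tudor domain helicase that acts with Piwil4 in fetal germ cells, was at 109, 109, 109.8 and 138 CPM and at 155, 151, 165, 156 and 151 CPM, a log2 difference of 1.26 ± 0.09 (edgeR, adjusted p = 1.01e-14). Its ages did not overlap but lay close together, with E18.5 natural 4 nearest to the 12-week libraries.

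**Figure D2:**
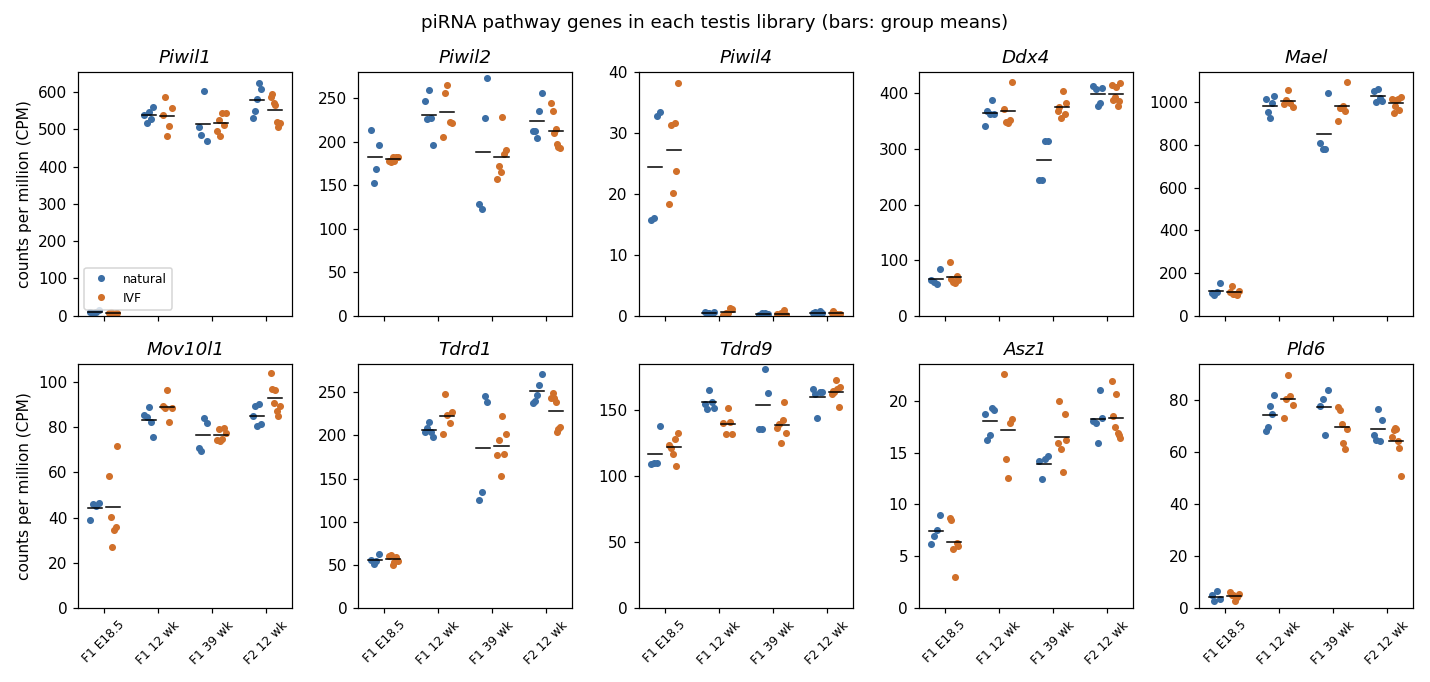
Level of each of the 10 genes in each testis library (CPM, vertical axes from 0 and scaled per gene) by age and generation, with naturals in blue, IVF in orange and group means as bars. Piwil1, Mael, Ddx4, Tdrd1 and Pld6 are low in the fetal libraries and high in the adult ones, Piwil4 is the reverse, and the Piwil2 levels of naturals at E18.5 and 12 weeks overlap.

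**Figure D3:**
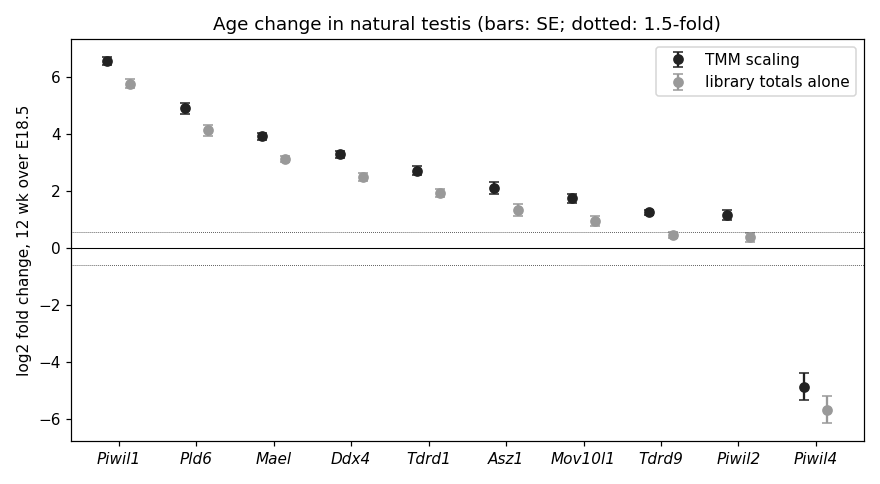
Log2 fold change of the 10 genes from E18.5 to 12 weeks in naturals (vertical axis), with TMM scaling in black and library totals alone in grey, bars showing SE and dotted lines 1.5-fold. Every gene lies lower with library totals, and Tdrd9 and Piwil2 then fall between the dotted lines.

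The order of the genes per kilobase of exon differed between the ages. In E18.5 naturals Mael was highest at 67.2 ± 14.2 CPM per kilobase (SD, n = 4), then Piwil2 at 34.6 ± 5.14, Ddx4 at 22.2 ± 4.06 and Tdrd9 at 21.5 ± 2.62. The libraries of Ddx4 and Tdrd9 overlapped, as did those of Mov10l1 (10.6 ± 0.857) and Tdrd1 (10.2 ± 0.889). Piwil4, Asz1, Pld6 and Piwil1 were lowest, at 4.54 ± 1.85, 2.63 ± 0.409, 2.47 ± 0.995 and 2.37 ± 0.612, each overlapping the next. At 12 weeks Mael was again highest at 567 ± 24.7 CPM per kilobase (SD, n = 5), and Piwil1, last at E18.5, came next at 123 ± 3.76, overlapping Ddx4 at 121 ± 5.51. Piwil2 (43.7 ± 4.55), Pld6 (42.4 ± 3.23) and Tdrd1 (37.8 ± 1.18) formed an overlapping series below them. Tdrd9 (28.7 ± 1.02), Mov10l1 (19.9 ± 1.17), Asz1 (6.37 ± 0.511) and Piwil4 (0.0842 ± 0.0239) followed without overlap.

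Naturals at 39 weeks, set against the same E18.5 libraries, had the same 9 genes higher and Piwil4 lower, where 76.3% of all genes were called and 41.1% were higher and 35.2% lower. The log2 differences were 6.59 for Piwil1, 5.06 for Pld6, 3.81 for Mael, 2.99 for Ddx4, 2.65 for Tdrd1, 1.84 for Asz1, 1.72 for Mov10l1, 1.32 for Tdrd9, 0.95 for Piwil2 and -5.31 for Piwil4. With library totals alone Piwil2 was at 0.09 and Tdrd9 at 0.45. Between 39 and 12 weeks edgeR called 0 of the 10 genes, against 1.81% of all genes, and 1 of the 10 had an unadjusted p under 0.05. That gene was Ddx4, at 245, 244, 315 and 314 CPM in the 4 naturals at 39 weeks, all below the 12-week naturals, with a log2 difference of -0.30 ± 0.10 (edgeR, adjusted p = 0.0915). Between the IVF groups of these ages the difference was 0.07 (edgeR, adjusted p = 0.850). Asz1 was also lower in every 39-week natural (14.2, 12.5, 14.4 and 14.7 CPM) than in any at 12 weeks, with a log2 difference of -0.28 ± 0.18 (edgeR, adjusted p = 0.398). Of all genes, 4.55% were lower at 39 weeks without overlap.

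Of 28 other pathway genes, 25 were tested with age. Between E18.5 and 12 weeks 18 rose and 3 fell, and by 39 weeks 17 rose and 3 fell. Those with the smallest adjusted p among the risen at 12 weeks were Tcfl5, a transcription factor of spermatocytes, from 28.7 ± 2.20 to 311 ± 15.1 CPM (log2 difference 4.27), Rnf17, a tudor domain protein, from 26.2 ± 3.57 to 153 ± 9.03 CPM (3.39), and Tdrd12, from 6.35 ± 2.47 to 107 ± 5.61 CPM (4.95). The fallen genes were Mov10, an RNA helicase related to Mov10l1, from 203 ± 19.9 to 30.1 ± 2.85 CPM (-1.92), Morc1, from 14.6 ± 3.43 to 3.44 ± 0.881 CPM (-1.25), and Dnmt3l, from 39.6 ± 11.8 to 10.4 ± 2.57 CPM (-1.07). Morc1 and Dnmt3l act in transposon silencing in fetal germ cells, as Piwil4 does. Other genes that act with Piwil4 there did not fall. Tdrd9 was called higher at 12 weeks with TMM scaling. Tex15 was at 155 ± 27.0 CPM at E18.5 and 149.7 ± 13.7 CPM at 12 weeks, with overlapping libraries, and was not called lower. Shares over all genes were 41% higher and 34.9% lower at 12 weeks, and 41.1% and 35.2% at 39 weeks. With library totals alone 15 rose and 6 fell by 12 weeks, and 15 and 7 by 39 weeks.

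Between 39 and 12 weeks 1 of the 25 was called in naturals, Mybl1, where 1.81% of all genes were. It was at 74.3, 67.3, 65.1, 73.4 and 74.8 CPM in naturals at 12 weeks and at 22.4, 22.7, 59.3 and 58.7 CPM at 39 weeks, lowest in the near-identical naturals 1 and 2. The log2 difference was -0.73 ± 0.21 (edgeR, adjusted p = 0.0388). Without natural 1 or natural 2 of the 39-week group it was -0.54 in each case (edgeR, adjusted p = 0.219 and 0.223), and the call was also lost without any 1 of the 12-week naturals. The IVF groups were at 57.2 ± 6.27 CPM at 12 weeks and 56.2 ± 11.9 CPM at 39 weeks, a log2 difference of 0.01 (edgeR, adjusted p = 0.995).

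IVF and natural animals were compared within each table, which asks whether conception by IVF, or by a sire so conceived, went with a change in these genes. In the 4 testis tables edgeR called 0 of the genes tested. At E18.5 all 10 were tested, with log2 differences from -0.47 to 0.20 and all 95% intervals within -0.91 and 0.78, and 0.221% of all genes were called. At 12 weeks 9 were tested, without Piwil4, which fell under the filter on low counts, with differences from -0.15 to 0.13 and intervals within -0.34 and 0.29 (0.199% of all genes called). At 39 weeks the same 9 were tested, with differences from -0.20 to 0.38 and intervals within -0.51 and 0.61 (0.00996% of all genes called). In F2 testis all 10 were tested, with differences from -0.38 to 0.15 and intervals within -1.22 and 0.47 (0.914% of all genes called). One gene of the 10 had an unadjusted p under 0.05 in each of the 4 tables, a different gene each time (10.5% of all genes at 39 weeks). Changes of 1.5-fold, 0.585 on the log2 scale, lay outside the intervals of all 9 genes at 12 weeks and inside the interval of at least 1 gene in each of the other 3 tables. Of the 28 other pathway genes 24, 26, 26 and 26 were tested in these tables and 0 were called by edgeR, with 5, 4, 2 and 1 at an unadjusted p under 0.05.

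**Figure D4:**
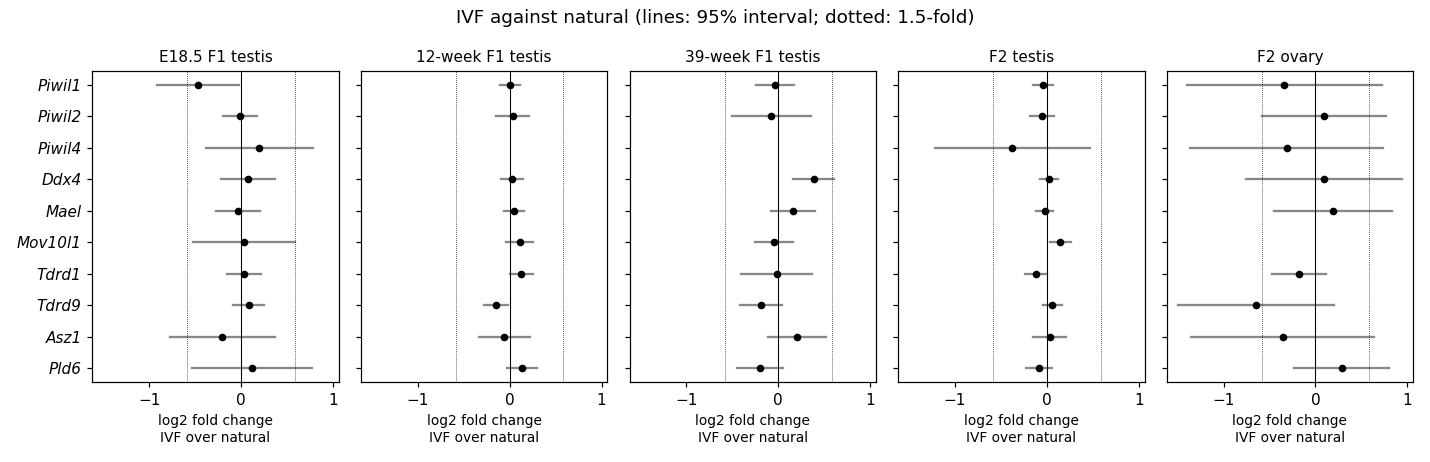
Log2 fold change of IVF over natural (horizontal axis) for each gene tested (points) with its 95% interval (lines) in the 4 testis tables and the ovary, dotted lines marking 1.5-fold. At 12 weeks all 9 intervals lie between the dotted lines, at 39 weeks Ddx4 lies apart from 0 at 0.38, and the ovary intervals are wide.

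At E18.5 the gene with an unadjusted p under 0.05 was Piwil1. The 4 naturals were at 8.74, 8.21, 10.3 and 14.1 CPM, and the 6 IVF testes ran from 4.87 over a median of 7.54 to 8.77 CPM. The groups overlapped, with IVF 1 and 2 inside the range of the naturals. The log2 difference was -0.47 ± 0.21 (edgeR, adjusted p = 0.255), where 17.7% of all genes had an unadjusted p under 0.05. The Piwil1 share of the PIWI transcripts was 4.11% ± 0.829 in IVF (SD, n = 6) against 5.71% ± 1.04 in naturals (n = 4; exact permutation test over libraries, two-sided p = 0.0381, adjusted p = 0.102 over the 8 comparisons). Sertoli cell markers summed to 2959 to 4269 CPM in IVF and 4000.1 to 5421 CPM in naturals, and spermatocyte markers to 113 to 156 and 82.8 to 116 CPM. Macrophage markers, at 48.5 to 64.6 CPM in IVF and 65.7 to 84.9 CPM in naturals, did not overlap between the groups. The list of granulosa cell markers, made for the ovary, summed to 218 to 439 and 305 to 839 CPM and marks no such cells in a testis. The part of these marker sums in the Piwil1 levels was not tested. The IVF libraries were deeper. Over 9 alternatives, counts thinned to the smallest library among them, the log2 difference of Piwil1 ran from -0.49 to -0.39. The part of depth was not tested further.

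The other PIWI genes overlapped at E18.5. Piwil2 was at 177 to 182 CPM in the IVF testes, within the 153 to 213 CPM of the naturals, and Piwil4 at 18.4 to 38.1 CPM against 15.6 to 33.4 CPM. Mael was at 112 ± 14.5 CPM in IVF (SD, n = 6) and 116 ± 24.6 CPM in naturals (n = 4), Ddx4 at 69.5 ± 13.9 and 66.8 ± 12.2 CPM, Tdrd1 at 56.1 ± 4.67 and 55.6 ± 4.84 CPM, and Tdrd9 at 121 ± 8.66 and 116 ± 14.2 CPM. Mov10l1 spread over 27.1 to 71.9 CPM in IVF and 38.9 to 46.5 CPM in naturals. Asz1 was at 2.97 to 8.71 and 6.21 to 8.95 CPM, and Pld6 at 2.75 to 6.24 and 2.46 to 6.42 CPM. The 2 groups overlapped for all 10 genes, where 3.26% of all genes were lower in IVF without overlap and 3.26% higher.

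At 12 weeks the gene with an unadjusted p under 0.05 was Tdrd9. The naturals were at 155, 151, 165, 156 and 151 CPM and the IVF testes at 140.0, 132, 151, 140.3 and 131 CPM, with IVF 3 alone inside the range of the naturals. The log2 difference was -0.15 ± 0.06 (edgeR, adjusted p = 0.326), where 12.9% of all genes had an unadjusted p under 0.05. The PIWI genes lay close together, with Piwil1 at 535 ± 41.4 CPM in IVF and 537 ± 16.4 CPM in naturals (SD, n = 5 each) and Piwil2 at 234 ± 25.2 and 231 ± 24.1 CPM. So did Mael, at 1007 ± 31.2 and 983 ± 42.8 CPM, and Ddx4, at 368 ± 31.2 and 365 ± 16.6 CPM. Tdrd1 was at 202 to 248 CPM in IVF and 199 to 216 CPM in naturals, Pld6 at 73.1 to 89.7 and 68.3 to 81.9 CPM, Mov10l1 at 82.4 to 96.7 and 75.8 to 88.8 CPM, and Asz1 at 12.6 to 22.6 and 16.2 to 19.3 CPM. Piwil4 was at 0.0659 to 1.25 and 0.274 to 0.590 CPM and was not tested. Among the 26 other pathway genes tested, 2 had an adjusted p under 0.05 with a change under 1.5-fold, and 0.746% of all genes had such a p at any fold. Tex15, which acts with Piwil4 in fetal silencing, was at 107 ± 12.0 CPM in IVF and 149.7 ± 13.7 CPM in naturals (log2 difference -0.47 ± 0.08, edgeR, adjusted p = 0.0111). Tdrd6, a tudor domain protein of spermatids, was at 1045 ± 50.3 and 1252 ± 48.4 CPM (-0.25 ± 0.05, edgeR, adjusted p = 0.0310). With the replicate block the adjusted p was 0.0528 for Tex15 and 0.109 for Tdrd6 (edgeR), and without any 1 library it ran up to 0.0511 and 0.120.

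At 39 weeks Ddx4 separated the groups. The 4 naturals were at 245, 244, 315 and 314 CPM, and the 6 IVF testes ran from 355 over a median of 372 to 404 CPM. Every IVF testis was above every natural, as for 2.34% of all genes, with a log2 difference of 0.38 ± 0.10 (edgeR, adjusted p = 0.239). Naturals at 12 weeks had 342 to 388 CPM of Ddx4, a range that overlaps the IVF testes at 39 weeks. Marker sums differed between the same groups without overlap: 8 fetal germ cell markers, Dazl among them, summed to 93.1 to 125 CPM in IVF and 55.2 to 85.0 CPM in naturals, spermatocyte markers to 1212 to 1272 and 1066 to 1144 CPM, and Sertoli cell markers to 869.7 to 1134 and 695 to 836 CPM. The part of these marker sums in the Ddx4 difference was not tested. The fetal list summed to 126 to 135 CPM in 12-week naturals, so in the adult testis it does not mark fetal germ cells alone. The paper names Dazl among the genes raised in IVF testes at 39 weeks. The DESeq2 Wald test gave 0.37 with an adjusted p of 0.0440, under the fold limit. Removal of the trend with GC content gave 0.19 (edgeR, adjusted p = 0.733). GC content was known for only 78.6% of the genes with at least 10 counts in this table, so over all genes that check is void. The GC content of Ddx4 itself was known (42.2%), so its log2 difference of 0.19 does carry the correction. With naturals 1 and 2 summed into 1 library the difference was 0.32 (edgeR, adjusted p = 0.532).

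The 39-week naturals were divided for several other genes, with naturals 1 and 2 on one side and 3 and 4 on the other. Piwil2 was at 128, 123, 228 and 273 CPM in them and at 157 to 228 CPM in IVF, Tdrd1 at 125, 134, 246 and 239 CPM and 153 to 223 CPM, and Tdrd9 at 135, 136, 181 and 163 CPM and 125 to 156 CPM. Spermatid markers summed to 30541, 31142, 20268 and 17368 CPM in the naturals, highest in 1 and 2, and to 18724 to 26632 CPM in IVF. Piwil1 showed no such division, with 505, 484, 602 and 469 CPM in naturals and 481 to 545 CPM in IVF. Mael was at 810.2, 779, 780.0 and 1045 CPM in naturals, with natural 4 in the range of the 913 to 1093 CPM of the IVF testes. Pld6 was at 66.7 to 84.0 CPM in naturals and 61.2 to 77.6 CPM in IVF, Mov10l1 at 69.5 to 84.3 and 73.8 to 79.8 CPM, and Asz1 at 13.9 ± 0.990 and 16.6 ± 2.44 CPM (SD, n = 4 and 6). Piwil4, at 0.0874 to 0.428 CPM in naturals and 0 to 1.02 CPM in IVF, was not tested.

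The IVF effects at the 3 ages were compared in one fit of all F1 testes. By edgeR 0 of the 10 genes had an adjusted p under 0.05 for any pair of ages, where 1.47% of all genes did for 12 weeks minus E18.5, 0.41% for 39 weeks minus E18.5 and 0.0109% for 39 minus 12 weeks. At an unadjusted p under 0.05 it was 1 of the 10 in each, against 17.1%, 15.3% and 13.5% of all genes. Tdrd9 came closest, with a difference between log2 effects of -0.40 ± 0.12 (edgeR, adjusted p = 0.0687) between 12 weeks and E18.5 and of -0.44 ± 0.12 (edgeR, adjusted p = 0.0785) between 39 weeks and E18.5. These share the E18.5 libraries. Over all genes the median difference was -0.17 and -0.18, and 0.01 and 0.00 with DESeq2 size factors, with which the Tdrd9 values were -0.22 and -0.25, and without 39-week natural 2 the latter was -0.48 (edgeR, adjusted p = 0.0459). For Ddx4 the effect at 39 weeks minus that at 12 weeks was 0.37 ± 0.14 (edgeR, adjusted p = 0.241).

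In F2 testis the gene with an unadjusted p under 0.05 was Mov10l1. The 5 naturals were at 84.9, 89.3, 80.5, 90.2 and 81.4 CPM, and the 7 IVF testes ran from 85.2 over a median of 90.7 to 104 CPM. The groups overlapped, and the log2 difference was 0.15 ± 0.06 (edgeR, adjusted p = 0.225), where 13.9% of all genes had an unadjusted p under 0.05. Piwil1 was at 552 ± 36.0 CPM in IVF (SD, n = 7) and 578 ± 38.5 CPM in naturals (n = 5), Mael at 996 ± 29.6 and 1028 ± 27.7 CPM, Ddx4 at 399 ± 16.1 and 398 ± 17.2 CPM, and Tdrd9 at 164 ± 6.18 and 159.6 ± 8.94 CPM. Tdrd1 was at 204 to 249 CPM in IVF and 238 to 272 CPM in naturals, Piwil2 at 193 to 244 and 204 to 256 CPM, Pld6 at 50.8 to 69.3 and 64.4 to 76.7 CPM, and Asz1 at 16.5 to 21.9 and 16.0 to 21.1 CPM. The IVF testes were divided in a way noticed only after the values were seen, with IVF 5, 6 and 7 below the other 4 for Piwil1, Piwil2 and Tdrd1. Piwil4, which had the widest interval, was at 0.138 to 0.719 CPM in IVF and 0.226 to 0.719 CPM in naturals.

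In the ovary, whose germ cells are oocytes, Tdrd1 was the highest of the 10 genes. It was at 12.9, 11.3, 12.5 and 11.5 CPM in the 4 naturals and at 10.9, 11.2, 10.5, 8.33 and 10.3 CPM in the 5 IVF ovaries. Every IVF ovary was below every natural, as for 2.84% of all genes, with a log2 difference of -0.18 ± 0.13 (edgeR, adjusted p = 0.637). The sum of 10 oocyte markers was also lower in every IVF ovary, at 265 to 387 CPM against 403 to 467 CPM, and its part in the Tdrd1 levels was not tested. Ddx4 was at 1.39 to 5.12 CPM in IVF and 2.24 to 4.14 CPM in naturals, Piwil2 at 2.56 to 3.39 and 1.87 to 4.83 CPM, Pld6 at 1.75 to 2.44 and 1.57 to 2.03 CPM, and Mael at 1.06 to 2.26 and 1.35 to 1.84 CPM. Piwil1, Piwil4, Tdrd9 and Asz1 lay between 0.174 and 2.39 CPM, and Mov10l1, at 0.109 to 0.752 CPM, was not tested. By edgeR 0 of the 9 genes tested and 0 of all 16502 genes (0%) were called. At an unadjusted p under 0.05 the numbers were 0 and 1757 (10.6% of all genes), and the DESeq2 Wald test called 88 genes, 0 of the 10 among them. The 9 log2 differences ran from -0.65 to 0.29, and for all but Tdrd1 the 95% interval reached past 1.5-fold, so a change of that size lay within their intervals.

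Per kilobase Tdrd1 stood at 2.21 ± 0.144 CPM per kilobase in natural ovaries (SD, n = 4), apart from Pld6 at 1.03 ± 0.115, and from Pld6 down each gene overlapped the next. Piwil2 was 55.3% ± 20.6 of the PIWI transcripts in natural ovaries and 64.4% ± 8.92 in IVF ovaries (SD, n = 5), and Piwil4 21.5% ± 14.9 and 17.9% ± 5.93. These shares rest on few counts.

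In the livers Pld6 was the 1 gene of the 10 that passed the filter on low counts. It was at 2.04, 1.34, 1.63, 1.25 and 0.962 CPM in F2 male naturals and at 0.317, 0, 0, 0.768 and 0.485 CPM in IVF males, from 28, 24, 26, 55 and 10 counts and 4, 0, 0, 8 and 4 counts. Every IVF liver was below every natural, as for 25.9% of all genes. IVF 2 and 3 held 2137355 and 543745 counts in all, in which the lowest natural level of 0.962 CPM would give 2.06 and 0.523 counts of Pld6, so their zeros cannot be told from that level. The other 3 IVF livers were also below every natural, and with IVF 2 and 3 left out, an alternative chosen after the data were seen, the log2 difference was -1.23 (edgeR, adjusted p = 0.0788). The log2 difference was -1.40 ± 0.52 (edgeR, adjusted p = 0.0460), and 31.1% of all genes were called. The call was lost without any 1 library other than IVF 4 (log2 differences -1.86 to -1.18 over all 10, edgeR, adjusted p from 0.0293 to 0.131) and under the alternatives given in the closing section. In female livers Pld6 was at 2.03, 0.462, 0, 1.13 and 1.05 CPM in naturals and ran from 1.25 over a median of 2.10 to 2.68 CPM in IVF, with a log2 difference of 0.82 ± 0.49 (edgeR, adjusted p = 0.181), where 39.4% of all genes were called. Of the other pathway genes 7 were tested in each liver table, with 1 higher and 1 lower in males and 2 higher and 1 lower in females. Hsp90aa1, a chaperone of many tissues, was higher in IVF males (1.52) and lower in IVF females (-0.87), Mov10 was lower in males (-0.87) and higher in females (1.02), and Exd1, a piRNA biogenesis factor, was higher in females (0.98). Total counts were 543745 to 12624673 in IVF and 10391074 to 44069283 in natural males. They were 13815244 to 90441392 in IVF and 3947645 to 34149676 in natural females. Of all genes, 25.9% were lower and 4.79% higher without overlap in IVF males, and 5.13% and 26.1% in IVF females. The part of depth in these differences was not tested.

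Germ line transcripts stood out in 3 of the 5 natural male livers. Mael had 42, 30 and 70 counts in naturals 1, 4 and 5 and 0 and 0 in naturals 2 and 3, Ddx4 had 18, 12 and 12 counts in the same 3 libraries, and Piwil1 13, 11 and 12. In IVF males these 3 genes had no counts except 2 of Mael in IVF 5. The 7 genes other than Piwil2, Piwil4 and Pld6, a choice made after the values were seen, summed to 6.77, 1.38 and 10.6 CPM in naturals 1, 4 and 5, which is 0.269%, 0.0550% and 0.420% of their mean sum in F2 natural testis. The spermatid markers were at 115, 22.5 and 173 CPM, or 0.675%, 0.132% and 1.02% of the testis level, and at 1.68 and 1.82 CPM in naturals 2 and 3. Both lists put the 3 libraries in the same order, and the source of these transcripts was not tested. Pld6 was at 1.34 and 1.63 CPM in naturals 2 and 3, which had no counts of the 7 genes, and naturals 1, 4 and 5 left out gave a log2 difference of -1.45 (edgeR, adjusted p = 0.269). In the 11 female livers the 7 genes had 0 to 2 counts in all.

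**Figure D5:**
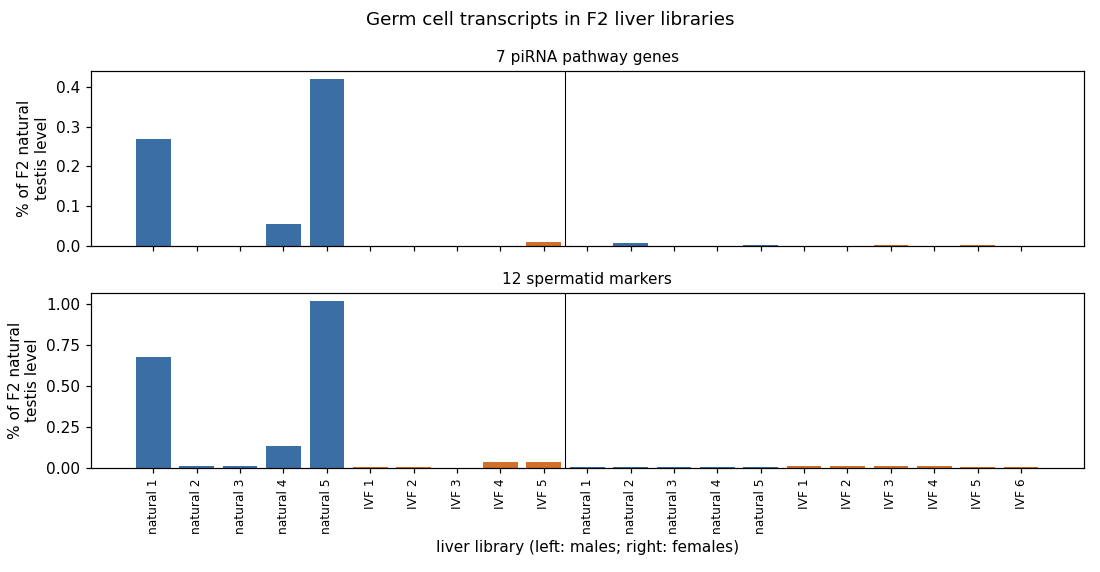
Summed level of 7 of the genes (upper panel) and of 12 spermatid markers (lower panel) in each F2 liver library, as percent of the mean level in F2 natural testis (vertical axes), with naturals in blue, IVF in orange, males on the left and females on the right. Male naturals 1, 4 and 5 stand out in both panels, at 0.269%, 0.0550% and 0.420% for the 7 genes.

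Over the 14 groups of the series, 9 of the 10 genes had similar profiles. The Pearson r of a gene's mean log2(CPM + 1) with the mean standardized profile of the other 9 was 0.881 for Pld6, 0.914 for Piwil1, 0.969 for Tdrd1 and 0.988 to 0.994 for Mael, Asz1, Piwil2, Tdrd9, Ddx4 and Mov10l1, and it was 0.203 for Piwil4. These values describe 14 groups that share tissues and libraries, with the contrast of testis and liver in all of them. Of 18203 genes outside the pathway lists, the 5 most like the mean profile of the 10 were Gm4969 (r = 0.998), Ano9 (0.997), Dmc1 (0.997), B4galnt4 (0.997) and Sfmbt2 (0.996). Dmc1 is a recombinase of meiosis and one of the spermatocyte markers.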

How the data were processed

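RNA-Seq of polyadenylated RNA (KAPA Stranded mRNA-Seq kit, per the labels) was used from 72 libraries in 7 tables. Raw counts per gene were deposited by the authors. The submitters' processing notes name Trimmomatic 0.32, STAR 2.3.0e, featureCounts 1.5.0, DESeq2 and the build mm10, with no roles given. Between 60.0% and 94.3% of low counts (1 to 20) per library were even, as when both mates of a pair are counted, so counting error is larger than the counts show. Libraries were grouped by their labels. Counts were filtered for low values with filterByExpr, scaled by TMM and tested with edgeR 4.0.16 (glmQLFit and glmQLFTest, R 4.3.3) across all genes of a table, the F1 testes of all ages in one fit for ages and for differences of effects. Benjamini-Hochberg adjusted p under 0.05 and over 1.5-fold made a call, with no fold limit for differences of effects. Alternatives were DESeq2 1.42.0 (size factors and Wald test), other filters, no fold limit, halved and thinned counts, removal of the GC trend, library totals alone, IVF groups in place of naturals, a replicate block and leaving out each library. The replicate block kept only libraries whose replicate number stood in every group of the fit. Summing near-identical libraries and leaving out male liver naturals 1, 4 and 5 or IVF 2 and 3 were added after the data were seen. The tests were tried on simulated counts with known changes.

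The 10 genes, the other pathway genes and the marker lists were chosen with earlier results of these data known. All 10 were named wherever tested, and of the 28 other pathway genes up to 3 called per direction and comparison, by smallest adjusted p. Tex15 and Tdrd6 at 12 weeks were not called, lie outside this rule and were named after their values were seen. Gene positions and promoters came from RefSeq, and exon lengths and GC content from GENCODE vM21. Whether libraries of a group came from separate litters is not given in the labels, and p-values measure the spread between these libraries. The paper describes the sequenced F1 testes as coming from different litters. The sires of the F2 animals are not given in the labels, and F2 libraries of a group may share a sire. Such libraries would not be independent measures of the conception of the sire. PCR reads carry no molecular identifiers.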

Additional observations from a re-analysis of the deposited data

Results flagged for a closer look

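In 7 of 98 groups of 4 to 7 libraries, 1 library lay far from the others of its group for 1 of the genes, by the gap to its neighbour over the range of the group. Chance alone gives about 1 in 20 groups. Tdrd9 was at 138 CPM in E18.5 natural 4, against 109 to 109.8 CPM in the other 3. Ddx4 was at 96.5 CPM in E18.5 IVF 1, against 58.2 to 70.9 CPM. Mael was at 1045 CPM in 39-week natural 4, against 779 to 810.2 CPM. In F2 testis Tdrd9 was at 144 CPM in natural 3, against 162 to 165 CPM, and Pld6 at 50.8 CPM in IVF 7, against 61.6 to 69.3 CPM. In F2 ovary Ddx4 was at 4.14 CPM in natural 3, against 2.24 to 2.50 CPM, and Piwil4 at 0.348 CPM in IVF 5, against 0.861 to 1.06 CPM. The IVF ovaries held only 4 to 17 counts of Piwil4 per library, so this value rests on few counts. The cause of these values was not tested.

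Of 25 other pathway genes 2 had a different IVF effect at 12 weeks and at E18.5 (edgeR, adjusted p under 0.05), as did 1.47% of all genes and 0 of the 10 genes. For Wdr77, a partner of the arginine methyltransferase Prmt5, the log2 effect at 12 weeks minus that at E18.5 was -0.64 ± 0.13 (SE; edgeR, adjusted p = 0.0141), with 99.2 ± 7.12 CPM in IVF and 79.9 ± 11.8 CPM in naturals at E18.5 and 33.6 ± 1.91 and 37.2 ± 2.93 CPM at 12 weeks (SD). For Tex15 it was -1.16 ± 0.30 (edgeR, adjusted p = 0.0438), with 220.1 ± 36.6 CPM in IVF and 155 ± 27.0 CPM in naturals at E18.5 and 107 ± 12.0 and 149.7 ± 13.7 CPM at 12 weeks. The median difference over all genes in this fit was -0.17. With the replicate block, which left out some libraries of this fit, 2 genes of all passed and neither of these did (Wdr77 -0.61, edgeR, adjusted p = 0.181, and Tex15 -1.17, edgeR, adjusted p = 0.241). With DESeq2 size factors they were at -0.46 (edgeR, adjusted p = 0.112) and -0.98 (edgeR, adjusted p = 0.133), and Tex15 was lost in most fits that left out 1 library.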

How the results depend on the processing

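The number of the 10 genes called was computed under 271 alternatives over 13 comparisons and kept its side in 255. The 271 include removal of the GC trend in the adult testis tables, a check that is void there over all genes. The exceptions were male liver and 1 difference of effects. In male liver the call of Pld6 went from 1 to 0 with the DESeq2 Wald test (-1.44, adjusted p = 0.0514), no filter (-1.47, edgeR, adjusted p = 0.121), the GC trend removed (-0.71, edgeR, adjusted p = 0.342), the replicate block (-1.44, edgeR, adjusted p = 0.139) and naturals 1, 4 and 5 left out (-1.45, edgeR, adjusted p = 0.269), and IVF 2 and 3 left out (-1.23, edgeR, adjusted p = 0.0788), and leaving out each library gave 0 to 1 calls. Pld6 was not tested there with halved or thinned counts or with at least 10 counts in every library. For the effect at 39 weeks minus that at E18.5, leaving out each library gave 0 to 1 calls, the 1 being Tdrd9 without 39-week natural 2. Between E18.5 and adult naturals library totals alone left 8 of the 10 calls at both ages. Ddx4 between 39 and 12 weeks went from -0.30 to 0.0681 with IVF groups in place of naturals. The causes were not tested.

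Samples that share a replicate number did not deviate together in every pair (r from -0.226 to 0.301). A pairing with small effects would not show in such values, so it stays possible. The replicate block changed no call of the 10 genes other than that of Pld6 in male liver, where 3250 genes of all were called against 3725. It called 2 genes at E18.5 (34 without it), 8 at 12 weeks (40), 3 at 39 weeks (2), 137 in F2 testis (196), 0 in ovary (0), 4275 in female liver (4935), 32 between 39 and 12 weeks (330), and 2, 0 and 0 for the differences of effects (268, 75 and 2). Where groups differed in size these fits also held fewer libraries, so a lost call cannot be put down to the block alone.

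Counts over all genes moved by more than 1.5 times under other settings too. Leaving out each library gave 3 to 115 at E18.5, 6 to 90 at 12 weeks, 1 to 11 at 39 weeks, 111 to 224 in F2 testis, 0 to 3 in ovary, 53 to 1117 between 39 and 12 weeks, and 87 to 321, 22 to 251 and 1 to 799 for the differences of effects. Other alternatives gave 1 (GC trend removed) to 181 (no fold limit) at E18.5, 8 to 150 at 12 weeks, 1 to 92 at 39 weeks, 92 to 345 in F2 testis, 0 to 88 in ovary, 872 to 4124 in male liver and 2177 to 6134 in female liver. At least 10 counts in every library gave 7946 and 8083 between E18.5 and 12 or 39 weeks, against 13874 and 13954. Between 39 and 12 weeks the alternatives gave 2 to 785, and for the differences of effects 2 to 268, 0 to 118 and 0 to 379. GC content was known for under 80% of genes with at least 10 counts in the adult testis tables (77.4% to 78.6%), so the GC check over all genes is void there.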
